A study of Rattus norvegicus with 16 samples.

Results

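The granule proteins of neutrophils were followed through 10 genes, Camp, Ngp, Lcn2, Ltf, Elane, Mpo, Prtn3, Ctsg, Lyz2 and Np4, in lung and adipose tissue of rats exposed to house dust mite (HDM) and of control rats. The genes were taken from a named list, and an array probe was assigned to a gene through the RefSeq transcript given in its annotation. A probe was found in this way for 9 of the 10 genes, with 12 probes among the 45598 probes for rat transcripts; 21229 of these probes carried 1 of 16678 gene symbols. Mpo, which encodes myeloperoxidase, had no probe matched by accession and was not analysed. Where a gene had more than 1 probe, the brightest probe of a tissue stood for it.

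Neutrophils store their weapons in granules that are filled one after another as the cell matures in the bone marrow. Primary granules receive serine proteases, myeloperoxidase and defensins at the promyelocyte stage, secondary granules receive lactoferrin, cathelicidin and lipocalin at the myelocyte stage, and gelatinase granules follow. The transcripts are made mainly while a granule is being filled, so mature neutrophils carry much of the protein but little of the primary-granule mRNA. Comparing the 2 classes of transcripts in a tissue therefore bears on the question of which stages of the lineage its neutrophil RNA comes from.

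All rats were male Brown Norway rats, described as 7 weeks old. This age is given for the rats that entered the treatment, and the age at tissue collection is not stated. The 5 HDM rats received 45 µg of HDM under the skin in Al(OH)3 adjuvant 1 time per week for 3 weeks, and then 120 µg of HDM in saline into the nose 3 times per week for 3 weeks. The 3 control rats received the same adjuvant with saline and saline into the nose, so both groups had been given Al(OH)3. Lung and adipose tissue of each of the 8 rats were hybridised to 1-color Agilent arrays, 16 arrays in all, 1 per rat and tissue. Each value below is the log2 signal of a probe minus the 75th percentile of its array, called the log2 signal. A change was called where limma gave an adjusted p under 0.05 over all probes and a fold change over 1.5.

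The 75th percentile of the signal ranged from 376 to 488 on the lung arrays and from 111 to 240 on the adipose arrays, and the share of probes well above background was 62.1% to 68.8% per lung array and 50.8% to 60.3% per adipose array. The labelled tissues carried their own markers: all 7 genes of alveolar type 2 and club cells were well above background on all lung arrays, and all 7 adipocyte genes on all adipose arrays. The adipose arrays of HDM rat 1 and control rat 1 stood apart in carrying high levels of epididymis transcripts. The adipose array of HDM rat 2 carried 1711 outlier spots where the remaining adipose arrays carried 410 to 566 (control spots included). In both tissues the arrays of HDM rats 1 to 4 lay in row 1 of the slide, and those of HDM rat 5 and the 3 control rats in row 2. In these bulk tissues, fewer cells of a type and less RNA per cell cannot be told apart.

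In lung, none of the 9 granule genes with a probe was called, compared with 0.855% of all probes (390 of 45598, 0.482% higher and 0.373% lower in HDM rats). The 2 with the largest changes were Np4, a neutrophil defensin of the primary granules, at 6.39-fold, and Camp, the cathelicidin of the secondary granules, at 2.39-fold. Camp was the only 1 of the 9 whose HDM and control rats did not overlap; over all probes, 9.61% did not overlap, 4.65% with HDM above and 4.97% with HDM below. Camp, Lcn2 and Lyz2 were well above background on all 8 lung arrays, Prtn3, Np4 and Ngp on some of them, and Elane, Ctsg and Ltf on none.

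**Figure D1:**
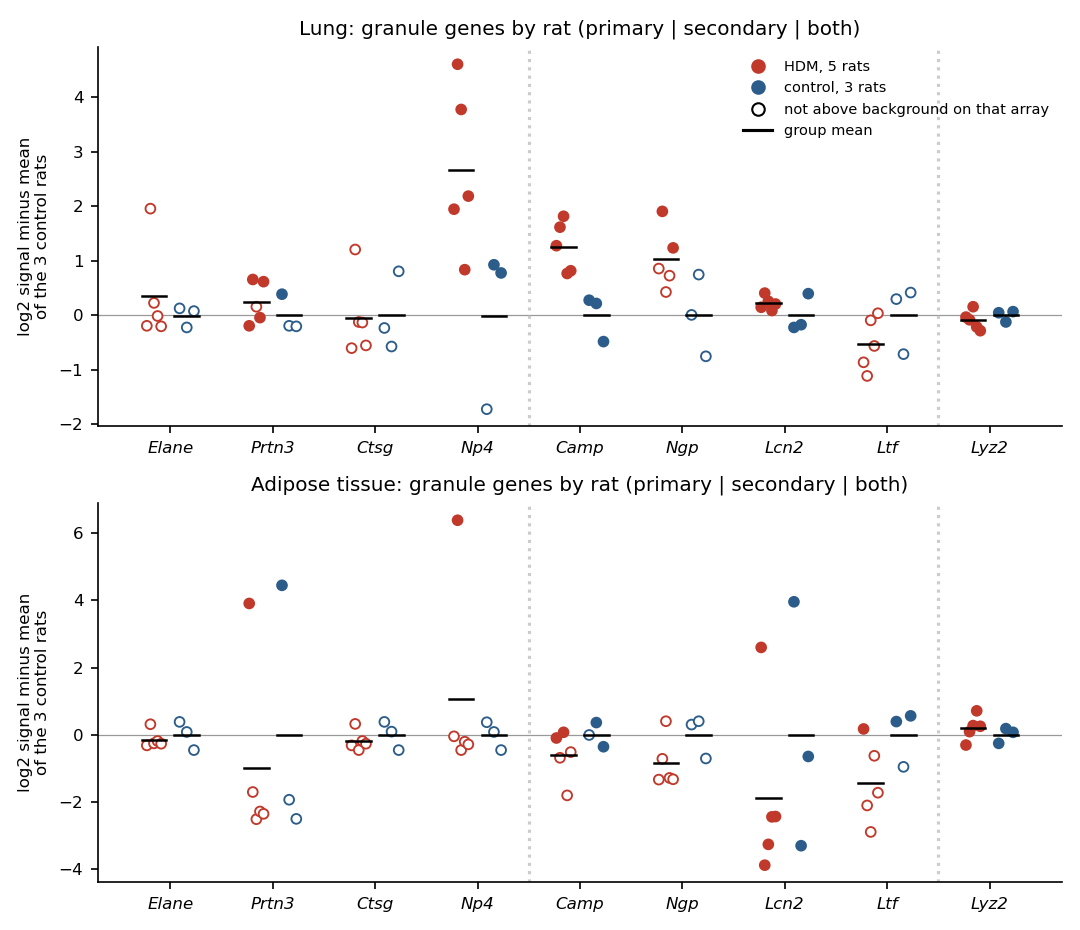
Log2 signal of each granule gene in each rat, minus the mean of the 3 control rats, in lung (upper panel) and adipose tissue (lower panel), with a bar at each group mean; open points were not well above background on that array. In lung, the HDM rats lay above every control rat for Camp and overlapped with them for Np4, and in adipose tissue 1 HDM rat and 1 control rat stood far above the rest for Prtn3 and Lcn2.

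Among the primary-granule genes, the proteases were at or near background in lung. Elane, which encodes neutrophil elastase, had log2 signals from -7.91 to -5.75 in HDM rats and from -7.93 to -7.58 in control rats, and Ctsg, which encodes cathepsin G, from -7.95 to -6.14 and from -7.92 to -6.54. Neither passed background on a single lung array, so no fold is given for them. Prtn3, which encodes proteinase 3, was well above background in 4 of 5 HDM rats and 1 of 3 control rats. Its log2 signals were -5.28, -4.43, -4.93, -5.13 and -4.47 in HDM rats 1 to 5 and -4.70, -5.28 and -5.29 in control rats 1 to 3. The groups overlapped over nearly their whole range (log2 fold change 0.24, SE 0.25, 95% CI -0.33 to 0.82, limma adjusted p = 0.895).

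The log2 signal of the brightest Np4 probe in lung was -2.15, 0.51, -0.32, -3.26 and -1.91 in HDM rats 1 to 5, and -5.82, -3.17 and -3.32 in control rats 1 to 3. HDM rats 2 and 3 lay well above every control rat, HDM rat 4 lay among control rats 2 and 3, and control rat 1 was the lowest of the 8 and not well above background. The spread was wide in both groups, 1.51 (SD, n = 5) around a mean of -1.43 in HDM rats and 1.49 (SD, n = 3) around -4.10 in control rats. The log2 fold change of 2.68 (SE 0.96, 95% CI 0.47 to 4.89) did not pass the test (limma adjusted p = 0.363). It was 1.37 after normexp background correction with quantile normalization (adjusted p = 0.328). Without control rat 1 it was 1.82, and over the leave-out of each rat in turn it ranged from 1.82 to 3.14 with adjusted p from 0.223 to 0.814.

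The other Np4 probe gave the same order of rats within the HDM group, with log2 signals of -2.34, 0.69, -0.29, -3.06 and -1.86, and of -6.72, -2.98 and -3.51 in control rats (log2 fold change 3.03, SE 1.09, limma adjusted p = 0.371). Of 16025 probes with a symbol that were well above background on at least 5 lung arrays, those closest to Np4 in their centred profile over the 8 rats belonged to Defa5 and RatNP-3b, both neutrophil defensins of the rat (RefSeq lists Defa5 also as ratNP-1 and ratNP-2), and to Prg3, a proteoglycan of eosinophil granules. The root mean square difference from Np4 was 0.44 for Defa5, 0.62 for RatNP-3b and 1.17 for Prg3 on the log2 scale, beside an SD of 1.96 of the Np4 profile itself. RatNP-3b had log2 signals of -2.66, -0.14, -0.91, -3.40 and -2.53 in HDM rats 1 to 5, and of -4.52, -3.09 and -3.92 in control rats. HDM rats 2 and 3 were again the highest, which its place among the nearest profiles makes likely. Its log2 fold change was 1.92 (SE 0.75, limma adjusted p = 0.428) and that of Defa5 was 2.05 (SE 0.89, adjusted p = 0.493). Defensin genes are close copies of each other, and signal shared between their probes cannot be told apart here.

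Prg3 passed background on every HDM array and on none of the 3 control arrays, with log2 signals of -5.51, -3.12, -3.96, -4.13 and -4.27 against -6.86, -6.41 and -7.53 (limma adjusted p = 0.0581). It entered the profile search through its 5 HDM arrays alone, and its control values are background signal, so its nearness to Np4 is a description with no weight beyond the HDM rats. HDM rat 2 was the highest lung for Prg3 as well as for the defensins. The eosinophil list held no call in lung (0 of 6 genes, median log2 fold change 1.22; the brightest were Alox15 at 0.55 and Prg2 at 1.75), and its summed level, on a linear scale relative to the 75th percentile, was 1.83 to 3.31 in HDM rats and 0.906 to 1.54 in control rats; its part in the Np4 values was not tested.

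The promoters of Np4 and Camp are shown because these 2 had the largest lung changes of the 9 granule genes with a probe, and that of RatNP-3b because its values followed those of Np4 from rat to rat. RefSeq promoters (assembly GRCr8) were listed for 9 of the 10 genes; Elane was the other. The 250 bases before the start of Np4 (chr16:77199643-77199892), RatNP-3b (chr16:77248978-77249227) and Camp (chr8:118721999-118722248), each on the minus strand, read as follows, with capitals marking matches to the core motif TTGCNNAA of C/EBP factors, which drive granule genes, on either strand.
Np4: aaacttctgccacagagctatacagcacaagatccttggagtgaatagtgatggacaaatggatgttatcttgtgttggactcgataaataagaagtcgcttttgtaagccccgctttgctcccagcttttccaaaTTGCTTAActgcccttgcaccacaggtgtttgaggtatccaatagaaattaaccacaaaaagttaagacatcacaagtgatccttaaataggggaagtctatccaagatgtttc
RatNP-3b: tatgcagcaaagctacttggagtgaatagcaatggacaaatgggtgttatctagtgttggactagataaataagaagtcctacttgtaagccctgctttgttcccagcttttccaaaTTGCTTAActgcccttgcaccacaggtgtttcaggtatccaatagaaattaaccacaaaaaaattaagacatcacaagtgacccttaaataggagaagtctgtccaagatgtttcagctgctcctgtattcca
Camp: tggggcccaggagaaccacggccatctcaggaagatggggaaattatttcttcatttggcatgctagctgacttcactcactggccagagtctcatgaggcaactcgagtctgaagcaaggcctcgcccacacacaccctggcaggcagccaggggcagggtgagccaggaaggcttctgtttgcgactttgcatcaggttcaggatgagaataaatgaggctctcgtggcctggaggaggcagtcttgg
Aligned end to end, the Np4 and RatNP-3b windows were identical at 215 of 270 columns (79.6%). These columns include gaps, also those at the ends, so the share over paired bases is higher. Both windows held 1 match of the same letters, 114 bases before the start of Np4 and 133 bases before that of RatNP-3b. The Camp window held no match to this motif or to GAGGAA, the core of PU.1 sites, on either strand. The C/EBP letters were found in 4 of the 9 granule promoters (Ngp, Lcn2, Lyz2 and Np4) and in 9.22% of all 33469 promoter windows of this length, and GAGGAA in 4 of the 9 (Mpo, Prtn3, Ctsg and Lyz2) and in 23.3%. These are letter matches in short windows and say nothing about binding.

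**Figure D2:**
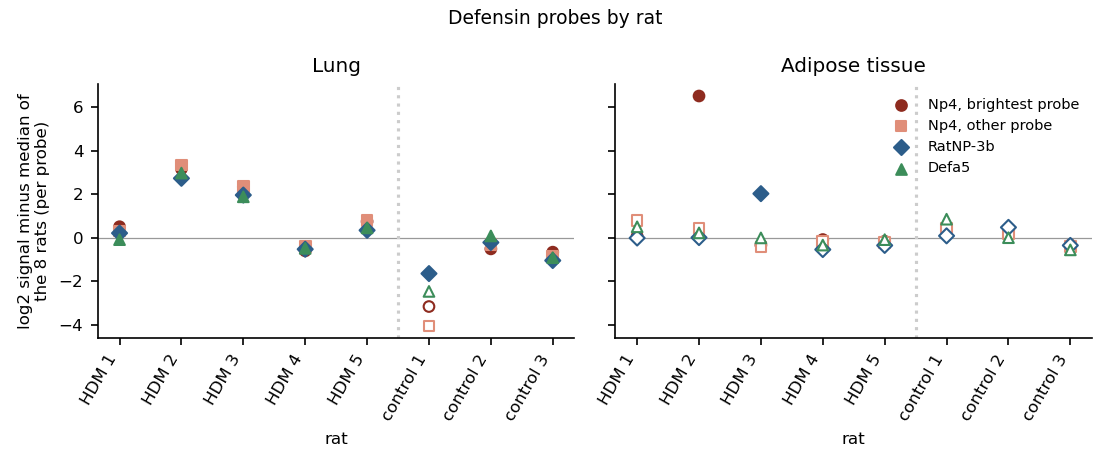
Log2 signal of the 2 Np4 probes, RatNP-3b and Defa5 in each rat, each probe minus its own median over the 8 rats of the tissue; open symbols were not well above background. In lung the 4 probes moved together from rat to rat, but RatNP-3b and Defa5 were found by their nearness to Np4 over these same lungs. In adipose tissue the brightest Np4 probe was high in HDM rat 2, where the other Np4 probe was not above background.

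Among the secondary-granule genes, Camp had log2 signals of -0.09, 0.25, 0.45, -0.60 and -0.55 in the lungs of HDM rats 1 to 5 and of -1.09, -1.15 and -1.85 in those of control rats 1 to 3. All 5 HDM rats lay above all 3 control rats. The mean was -0.11 ± 0.47 (SD, n = 5) against -1.37 ± 0.42 (SD, n = 3). The log2 fold change was 1.26 (SE 0.30, 95% CI 0.56 to 1.95), and the two-sided exact permutation p of 0.0179 was the smallest that the 56 splits of the 8 rats allow. Over all probes the change was not called (limma adjusted p = 0.134). It was called when dim probes were left out before the fit (adjusted p = 0.0497) and when the adjustment covered only probes past 1.5-fold (adjusted p = 0.016). The latter probes were picked by the fold change under test, so that adjusted p does not hold the stated error rate. Within row 2 of the slide, HDM rat 5 differed from the 3 control rats by 0.82 on the log2 scale, and with the row as a block the adjusted p was 0.82.

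The genes closest to Camp in their lung profile were Slfn4, Milr1 and Clec4a, with root mean square differences of 0.22, 0.24 and 0.25 on the log2 scale, beside an SD of 0.77 of the Camp profile. Slfn4 (log2 fold change 1.23, SE 0.18, limma adjusted p = 0.0301) and Milr1, an inhibitory receptor of myeloid cells (1.42, SE 0.22, adjusted p = 0.032), rose in HDM lungs. For Clec4a, a lectin receptor of myeloid cells, the log2 fold change was 0.91 (SE 0.22, adjusted p = 0.151). These genes were found by their nearness to Camp over these same lungs, where its HDM rats lay above its control rats. Higher signals in HDM rats are therefore made likely by the search and add no support to the change of Camp.

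Ngp, which encodes neutrophilic granule protein, a relative of the cathelicidins, was well above background in the lungs of HDM rats 2 and 5 and in no control lung. Its log2 signals were -5.73, -4.68, -6.16, -5.86 and -5.35 in HDM rats 1 to 5 and -6.58, -5.84 and -7.34 in control rats. The groups overlapped (limma adjusted p = 0.441). Set against the lowest signal well above background on each control array, the HDM mean was 1.22-fold higher. That mean includes HDM arrays at background, so the value is not a firm lower bound. After normexp background correction with quantile normalization the log2 fold change was 0.11. Ltf, which encodes the iron-binding lactoferrin, passed background on no lung array, with log2 signals from -7.03 to -5.50.

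Lcn2, a lipocalin that binds bacterial siderophores and is made by epithelia as well as by neutrophil precursors, had overlapping groups in lung. Its log2 signals were 2.58, 2.84, 2.69, 2.52 and 2.64 in HDM lungs and 2.21, 2.26 and 2.83 in control lungs. Control rat 3 lay among the HDM rats and the other 2 control rats lay below them (log2 fold change 0.22, SE 0.16, 95% CI -0.16 to 0.60, limma adjusted p = 0.804). Lyz2, the lysozyme of macrophages, alveolar type 2 cells and all neutrophil granules, had log2 signals from 8.73 to 9.17 in HDM lungs and from 8.89 to 9.08 in control lungs. Its 3 probes gave log2 fold changes of -0.10, -0.09 and -0.04, and the interval of the brightest ran from -0.38 to 0.21.

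As classes, the 4 primary-granule genes with a probe had a median log2 fold change of 0.30 in lung and the 4 secondary-granule genes of 0.62, beside 0.003 over all probes. The difference between the classes, 0.32, was smaller than its spread between rats (SD 0.45). Its sign rested on genes at background. With the genes left out that were not above background on any lung array, a choice made after seeing the data, the primary median was 1.46 (Prtn3 and Np4) and the secondary median 1.03 (Camp, Ngp and Lcn2). The latter is the value of Ngp, which passed this filter through 2 HDM arrays alone. These filtered medians therefore cannot order the classes either. In these lungs the transcripts of the classes could not be ordered.

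Other granule and neutrophil genes put these values in context. Of 8 further primary-granule genes none was called, with a median log2 fold change of 0.17 and a range from -0.14 to 1.92, the latter for RatNP-3b. The brightest were Cd63, a tetraspanin of granule membranes (-0.03, SE 0.10), and Srgn, the serglycin core that packs granule proteases (0.31, SE 0.10, limma adjusted p = 0.283). Of 10 further secondary-granule genes 3 rose, namely Mmp8, neutrophil collagenase, by 3.95 on the log2 scale (SE 0.25, limma adjusted p = 0.000638), Chi3l1, a chitinase-like lectin, by 1.33 (SE 0.12, adjusted p = 0.00375), and Itgam, the alpha chain of the Mac-1 integrin, by 1.03 (SE 0.15, adjusted p = 0.0285). The median over these 10 was 0.49, and none of them had a log2 fold change below 0.

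Mmp8 had log2 signals of -0.25, -0.70, 0.02, -0.40 and -1.14 in HDM lungs and of -4.58, -4.42 and -4.33 in control lungs. The groups were far apart. Of 6 genes of gelatinase granules and secretory vesicles 2 rose, Mmp9, gelatinase B, by 3.23 (SE 0.21, limma adjusted p = 0.000736) and Fcnb, a ficolin, by 1.78 (SE 0.21, adjusted p = 0.0107). The median over the 6 was only 0.14, with 4 log2 fold changes above 0 and 2 below, the lowest at -0.66.

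Of 9 genes of mature neutrophils 7 rose in lung, with a median log2 fold change of 2.18. The calprotectin subunits S100a8 and S100a9 rose by 4.46 (SE 0.29, limma adjusted p = 0.000736) and 4.09 (SE 0.24, adjusted p = 0.000376). Mmp9 was the next largest, followed by the chemokine receptor Cxcr2 at 2.46 (SE 0.14, adjusted p = 0.000354). The summed level of the 9 genes on the linear scale was 125 to 272 in HDM lungs and 10.3 to 12.1 in control lungs. This sum rests mostly on S100a8 and S100a9. Their lowest log2 signals in HDM lungs were 5.53 and 6.21, and no other gene of the list was above 0.51 there. Fpr1, a receptor for bacterial formyl peptides named here after its value was seen, was below all control rats in every HDM rat (-0.66, SE 0.14, adjusted p = 0.0877). Over all related lists 11 genes were called in lung. With the slide row as a block there were 3, namely S100a9, Cxcr2 and Mmp8.

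**Figure D3:**
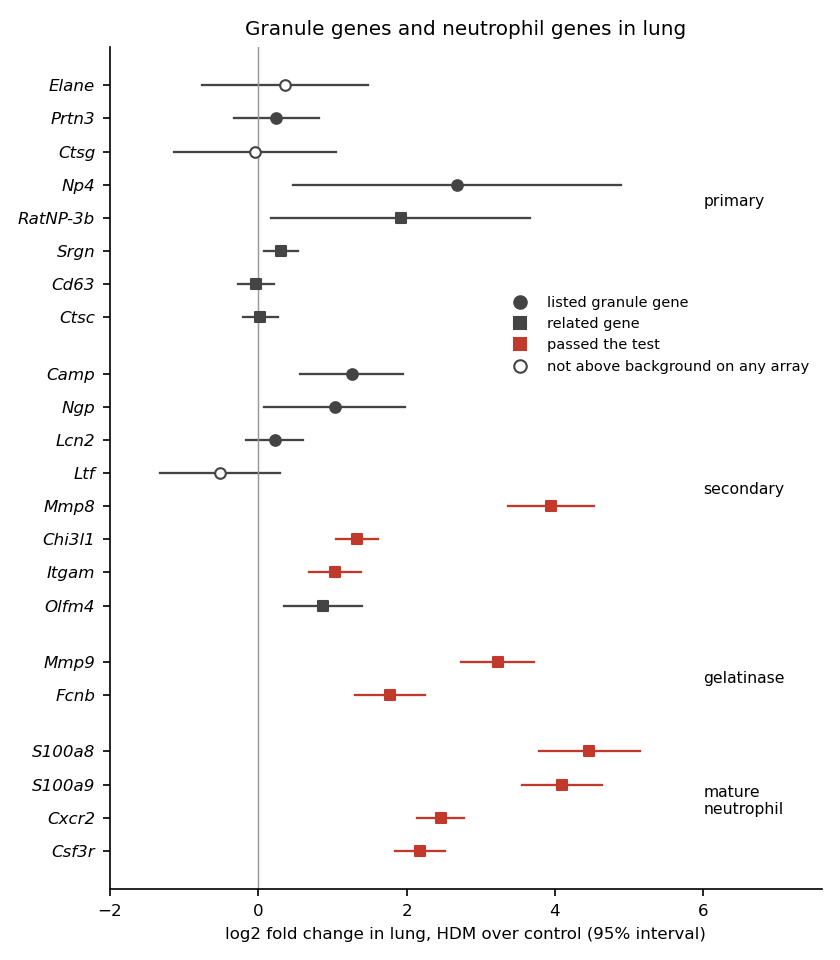
Log2 fold change in lung, HDM over control, with its 95% interval, for the listed granule genes (circles) and for selected related genes (squares), ordered by granule class. The squares are a part of each list and do not stand for whole lists. Of the gelatinase and secretory vesicle genes only the 2 called are drawn, while 2 of the 6 in that list lay below 0. Red marks genes that passed the test and open circles genes not above background on any lung array. Mmp8, Mmp9, S100a8 and S100a9 lay above 3, while the circles, Np4 aside, lay below 1.5.

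Of 9 regulators of granule formation, Csf3r, the receptor for granulocyte colony-stimulating factor, rose in lung (2.18, SE 0.15, limma adjusted p = 0.00075). The median over the 9 was 0.03. Of 6 genes of neutrophil precursors, Fcnb was the 1 called, and the median was 0.11. None of 5 inhibitors of granule proteases was called. The brightest were Serpinb1a, an intracellular inhibitor of elastase, proteinase 3 and cathepsin G (1.46, SE 0.29, adjusted p = 0.0724), and Slpi, a secreted inhibitor of elastase (0.63, SE 0.17, adjusted p = 0.197).

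Markers of other cells that make granule proteins were not called in lung. Of the 7 macrophage and monocyte genes, 4 had a log2 fold change above 0 and 3 below, from -0.40 to 0.64, with a median of 0.10 (the brightest, Cd68 and Csf1r, at 0.27 and 0.14), and a summed level of 10.9 to 13.0 in HDM rats and 9.45 to 10.5 in control rats. Of the 7 mast cell genes, 5 lay above 0 and 2 below, from -0.36 to 0.46, with a median of 0.11 (the brightest, Mcpt1 and Tpsb2, at 0.46 and -0.07). All 7 alveolar type 2 and club cell genes lay below 0, with a median of -0.11 (the brightest, Sftpc and Sftpb, at -0.08 and -0.19).

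In adipose tissue no granule gene was called, and no probe at all (0% of 45598; 4515 probes had an unadjusted limma p under 0.05, and the smallest adjusted p was 0.0853). None of the 9 granule genes had groups that did not overlap, compared with 6.26% of all probes (1.54% with HDM above and 4.72% with HDM below). The median log2 fold change over all probes was -0.154. Lcn2 and Lyz2 were well above background on all 8 adipose arrays, Prtn3, Np4, Camp and Ltf on some of them, and Elane, Ctsg and Ngp on none.

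Prtn3 and Lcn2 were set apart in adipose tissue by the same 2 rats. Prtn3 had log2 signals of -0.11 in HDM rat 1 and 0.43 in control rat 1, and of -5.73, -6.54, -6.31 and -6.38 in HDM rats 2 to 5 and -5.96 and -6.53 in control rats 2 and 3, where it was not well above background. Lcn2 had log2 signals of 7.33 in HDM rat 1 and 8.69 in control rat 1, of 0.84, 1.46, 2.28 and 2.29 in HDM rats 2 to 5, and of 1.42 and 4.08 in control rats 2 and 3. Bpi, a bactericidal protein of the primary granules named here after its values were seen, was at 6.58 and 5.90 in HDM rat 1 and control rat 1 and between -6.65 and -1.79 in the other rats.

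The same 2 adipose samples carried the highest levels of epididymis transcripts. All 12 genes of the epididymis list had a probe, and their summed level ranged from 1.42 to 4250 in HDM rats and from 1.92 to 5520 in control rats, with the top of each range in rat 1. The lipocalin Lcn5 was at 9.59 in HDM rat 1 and 10.48 in control rat 1, and from -5.06 to 4.82 in the others, and Lcn12, another lipocalin, was at 2.88 and 7.56 in these rats and between 0.02 and 0.67 in the others. Gpx5, an epididymal glutathione peroxidase named after its values were seen, was at 9.61 and 10.16, and between -6.54 and -3.62 in the others. Lcn5 was also well above background in HDM rats 4 and 5 and control rats 2 and 3, Gpx5 in control rat 2, and Lcn12 in all rats. Control rat 3 had the next highest Lcn5, Bpi and Lcn2. The part of epididymal RNA in the Prtn3 and Lcn2 values was not tested.

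Without both rats, the log2 fold change of Prtn3 was 0.01 (SE 0.30, limma adjusted p = 1), with no array above background, and that of Lcn2 was -1.03 (SE 0.82, 95% CI -3.06 to 0.99, adjusted p = 0.936). With all 8 rats they were -0.99 (SE 2.01, adjusted p = 0.87) and -1.89 (SE 1.90, adjusted p = 0.82). Control rat 3, with Lcn5 at 4.82 and Lcn2 at 4.08, was kept in both fits.

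**Figure D4:**
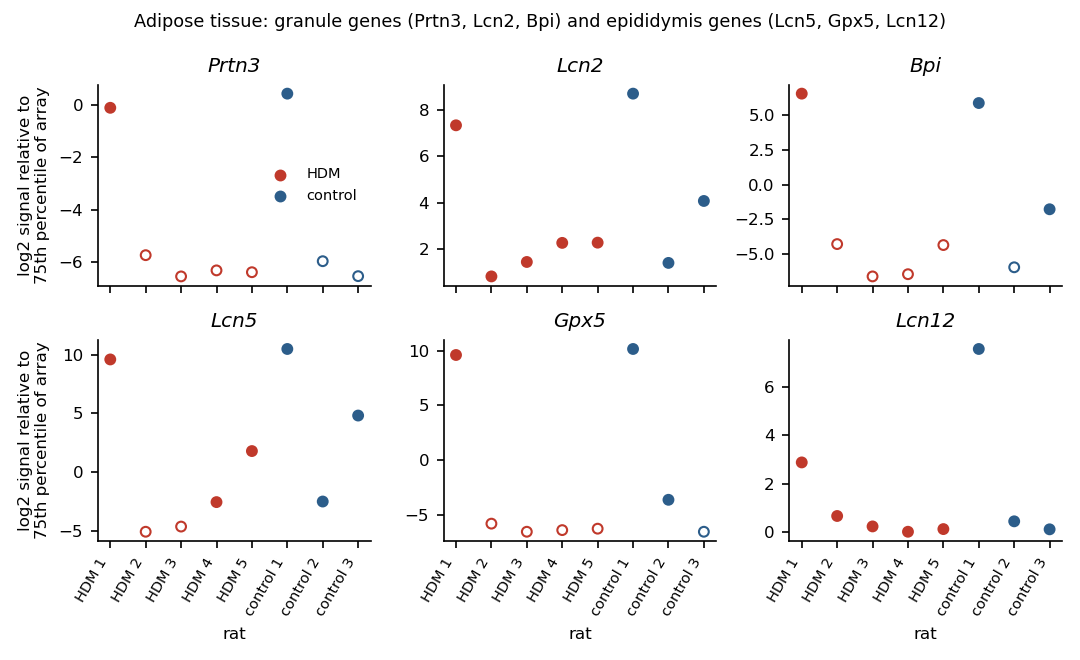
Log2 signal in the adipose tissue of each rat for the granule genes Prtn3, Lcn2 and Bpi (upper row) and for the epididymis genes Lcn5, Gpx5 and Lcn12 (lower row), each on its own axis; open points were not well above background. HDM rat 1 and control rat 1 were the highest in all 6 panels.

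Np4 was high in the adipose tissue of HDM rat 2 by 1 of its probes. The brightest probe gave 0.07 there and between -6.78 and -5.95 in the other 7 rats, where it was not well above background, whereas the other Np4 probe gave -5.88 in HDM rat 2, at background, and RatNP-3b gave -5.85. The probes of 1 gene thus disagreed on the array with the most outlier spots, and whether the spots bear on it was not tested. With HDM rat 2 the log2 fold change was 1.08 (SE 1.55, limma adjusted p = 0.82) and without it -0.25 (SE 0.24, adjusted p = 0.686). No fold over the control group is given, since the control rats were at background.

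Camp in adipose tissue was well above background in 2 of 5 HDM rats and 2 of 3 control rats. Its log2 signals were -3.73, -4.32, -3.56, -5.44 and -4.15 in HDM rats 1 to 5 and -3.64, -3.27 and -3.99 in control rats. The control rats lay within or just above the range of the HDM rats (log2 fold change -0.61, SE 0.42, 95% CI -1.58 to 0.37, limma adjusted p = 0.707). Ltf had log2 signals of -3.62, -5.90, -6.69, -4.42 and -5.52 in HDM rats and -3.40, -4.75 and -3.23 in control rats, and was above background in HDM rat 1 and in control rats 1 and 3. Its log2 fold change was -1.44 (SE 0.71, 95% CI -3.07 to 0.20, adjusted p = 0.56), and HDM rats 1 and 4 overlapped with the control rats.

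Lyz2 had log2 signals of 6.12, 6.52, 6.70, 7.14 and 6.68 in the adipose tissue of HDM rats and of 6.17, 6.61 and 6.50 in control rats (log2 fold change 0.20, SE 0.24, limma adjusted p = 0.82). The groups overlapped for all 3 of its probes. Elane, Ctsg and Ngp stayed between -6.78 and -4.69 in both groups.

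The primary-granule median in adipose tissue was -0.17 and the secondary-granule median -1.14, a difference of -0.98 with a spread between rats of 0.62 (SD). Of the 4 secondary-granule genes all had a log2 fold change below 0, but 1 of them was not above background on any array and 2 on some arrays only. Of the mature neutrophil genes, none of 9 was called in adipose tissue, with a median of 0.61. S100a8 and S100a9 had log2 fold changes of 4.66 (SE 0.55, limma adjusted p = 0.154) and 3.83 (SE 0.33, adjusted p = 0.0853), with the HDM rats above all control rats for both. S100a9 had log2 signals of 1.24, 1.61, 1.98, 0.84 and 0.74 in HDM rats and -2.13, -2.61 and -2.91 in control rats.

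None of the other granule lists held a call in adipose tissue. The further primary-granule genes had a median log2 fold change of 0.15 (Cd63 -0.11 and Ctsc, cathepsin C, 0.55, with no value for Ctsc in HDM rat 2, which the fit left out). The further secondary-granule genes had a median of 0.59 (Cyba 0.17 and Itgam 0.60) and the gelatinase and secretory vesicle genes of 0.34 (Cd14 1.21 and Mme 0.19). The inhibitors had a median of 0.04 (Serpina3n 1.01 and Serpinb1a 0.04) and the regulators of 0.16 (Cebpa 0.13 and Cebpb 0.16).

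The change within each rat from adipose tissue to lung was then compared between the groups, since the labels number the same rats in both tissues. No granule gene was called, compared with 0.00219% of all probes (1 of 45598). Camp came closest, with a log2 fold change of 1.26 in lung and -0.61 in adipose tissue, a difference of 1.86 (SE 0.34, 95% CI 1.08 to 2.65, limma adjusted p = 0.29). This was the top of the range over the alternatives that kept all rats, 0.95 to 1.86. Without 1 rat each the Camp difference was 1.69 to 2. Camp was well above background on some adipose arrays only. For Lcn2 the difference was 2.11 (SE 1.95, adjusted p = 0.804) and for Lyz2 -0.37 (SE 0.38, adjusted p = 0.825). Each tissue lay on a slide of its own, so the levels of a gene in lung and in adipose tissue cannot be told apart from the slides and were not tested.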

How the data were processed

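Total RNA (50 ng) of lung and adipose tissue was labelled with Cy3 and hybridised to SurePrint G3 rat arrays of 62976 spots, 1 array per rat and tissue. The deposited scanner files hold spot intensity values that the authors extracted with Agilent Feature Extraction 12.0.3.1 (per the file headers), background-subtracted and corrected for spatial trends, with no scaling between arrays. A deposited table of log2 values, which the authors made in GeneSpring and centred near 0 per probe by steps not stated in the sources used here, served as an alternative; 39 of its cells held no readable number and were filled from the scanner signals.

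Control and outlier spots were left out, spots of a probe were averaged as log2 intensity, and the 75th percentile of each array was subtracted. Groups were compared per tissue with limma 3.58.1 in R 4.3.3, with Benjamini-Hochberg adjustment over all 45598 probes. The methods of the study name an unpaired test with the same adjustment and fold threshold of 1.5, which was run as an alternative. Tissue differences were tested on the lung minus adipose value of each rat. The number of arrays, 5 and 3 per tissue, limits the precision. The spread between replicates is that between rats. The fit was tested on simulated data. Probes were named through RefSeq accessions (table of 47357 genes, assembly GRCr8; the array design was annotated on rn4, so no gene coordinates are given). A probe not well above background on any array of a group has only a bound there. For Ngp in lung, the fold given set the mean of the HDM group against a floor on each control array. This floor was the lowest signal among probes well above background, or the signal of the probe itself where that was higher. Named were all granule genes, up to 4 called genes of each related list (otherwise the 2 brightest), and for the primary-granule and the secondary-granule gene with the largest lung change the 3 genes with the nearest profile. Of the related genes, 96 of 107 had a probe. The granule genes and the lists were chosen with earlier results of these data known. Alternatives covered scaling, background correction, the deposited table, dim and outlier spots, array weights, slide row, probe choice, the class of each gene and leaving out each rat. Figures were drawn with matplotlib 3.10.9.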

Additional observations from a re-analysis of the deposited data

Results flagged for a closer look

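Each of the 9 granule genes with a probe was checked in both tissues. A value that stood far from the other 4 HDM rats of its tissue was found for 6 gene and tissue pairs. Chance gives about 1 in 20 groups of this size, but all 6 values came from HDM rats 1 and 2, so the flags are not independent. In adipose tissue, Prtn3 and Lcn2 were flagged for HDM rat 1, at log2 signals of -0.11 and 7.33, with the nearest HDM rats at -5.73 and 2.29. This is the HDM rat with the highest levels of epididymis transcripts. Np4 was flagged for HDM rat 2 in adipose tissue, at 0.07 against -6.37 in the nearest HDM rat, where the other Np4 probe was at background. The other flags concern probes not well above background: Elane in HDM rat 2, at -5.75 in lung (nearest -7.48) and -6.01 in adipose tissue (nearest -6.51), and Ctsg in the lung of HDM rat 2, at -6.14 (nearest -7.47).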

How the results depend on the processing

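No granule gene was called in either tissue, or between the tissues, under any alternative but 2, in which Camp was called in lung, making 1 call: leaving out dim probes and adjusting only over probes past 1.5-fold. The latter picks probes by the fold change under test, so its adjusted p values do not hold the stated error rate. Over all lung probes the count of calls, 390, became 1329 with that narrower adjustment, 751 without dim probes, 705 with array weights, 166 in 1 model of lung and adipose arrays together (rat as a random effect), 25 with the slide row as a block, and 100 to 333 without 1 rat each, lowest without control rat 2. It was also below 390 by over 1.5 times without HDM rat 1 (163), HDM rat 2 (161), HDM rat 5 (210), control rat 1 (125) and control rat 3 (175). The 11 called genes of the related lists became 20 with the narrower adjustment, 5 in the joint model and 3 with the slide row as a block. Without any one rat they were 9 or 10. In adipose tissue the count of 0 became 28 with the narrower adjustment, 7 with quantile normalization, 3 with median scaling, 1 with normexp, 5 without dim probes, 338 with array weights, 1 with the slide row as a block and 106 in the joint model; related genes were then 2, 1, 1, 0, 1, 2, 0 and 2.

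Same-numbered HDM and control rats are different animals, so the numbers do not pair the rats. Their deviations correlated at -0.06, -0.08 and 0.05 (lung) and at 0.59, 0.14 and 0.10 (adipose tissue). The value of 0.59 belongs to the rats numbered 1, whose adipose arrays stood apart in epididymis transcripts. With the replicate number as a block, no granule gene was called in either tissue, and 0 probes and 0 related genes were called in lung. Lyz2 then turned to 0.02 in lung, and its difference between the tissues to 0 at the 2 decimals given.

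The lung primary-granule median, 0.30, was 0.08 under normexp and ranged from 0.05 (without HDM rat 2) to 0.43 without 1 rat each. The log2 fold change of Np4 in lung, 2.68, was 1.37 under normexp. The lung secondary-granule median, 0.62, was 0.18 under normexp, 0.22 with Lyz2 added and 1.03 without Lcn2. Without dim probes the primary-granule median was 2.68 (Np4 alone) and the difference between the classes -1.94. That filter kept probes well above background on all arrays of at least 1 group. Np4 passed it only through its 5 HDM arrays, being above background in 2 of 3 control lungs. The change of sign there thus depends on a filter tied to the groups compared. With means in place of medians the difference was -0.31. With the genes left out that were above background on no array (an alternative chosen after seeing the data), the medians were 1.46 and 1.03 and the difference -0.43. Ngp, whose value is the secondary median there, passed that filter through HDM arrays alone. Without 1 rat each, the lung difference ranged from 0.14 to 0.55. In adipose tissue the secondary-granule median was -0.05 and the difference -0.09 under normexp, and the secondary median was -1.89 without dim probes (Lcn2 alone). Without 1 rat each the adipose primary median ranged from -0.40 to 0.64, the last without control rat 1.

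Signs also turned in adipose tissue for Np4 under Gapdh and Hprt1 scaling (-0.27), with the slide row as a block (-0.29), without HDM rat 2 (-0.25), and without that rat and both rats numbered 1 (-0.13, chosen after seeing the data). They turned for Prtn3 without both rats numbered 1 (0.01) and without control rat 1 (1.23; range over single rats left out -2.25 to 1.23), for Lcn2 without control rat 1 (0.09; range -3.54 to 0.09), and for the tissue difference of Prtn3 without control rat 1 (-0.79; range -0.79 to 2.57). The range for Np4 was -0.25 to 1.46. The cause of these turns was not tested. Signal over background limits Elane, Ctsg, Prtn3, Np4, Ltf and Ngp in lung and all granule genes but Lcn2 and Lyz2 in adipose tissue.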
